A study of Mus musculus with 4 samples.

Results

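The Schlafen genes of the mouse were followed in erythroid cells of the fetal liver, with and without a knockout directed at Adar, which encodes ADAR1, an enzyme that edits RNA. A gene was taken when its name in the gene table began with Slfn and a digit, and 5 of 10716 genes met that rule: Slfn3, Slfn4, Slfn5, Slfn9 and Slfn14. RNA was sequenced from C57BL/6 embryos at day 14.5, from fetal liver cells sorted by flow cytometry for YFP, which an R26eYFP reporter carries. The 2 libraries labelled knockout (replicates 1 and 2) are Epor-Cre knockouts by the design text, Cre being a recombinase that Epor, the erythropoietin receptor gene, expresses in erythroid cells, and their genotype is written Epor-Adar / +, leaving it unstated whether 1 or both alleles of Adar were lost. The 2 controls (replicates 3 and 8) are labelled wild type. The labels do not say whether each library came from a separate embryo, so each p-value reflects the spread among the 4 libraries alone, and that spread may be technical. In bulk RNA, fewer cells of a type and less RNA per cell cannot be told apart.

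Schlafen proteins share a core domain with a nuclease-like fold, and the longer members, Slfn5, Slfn9 and Slfn14 among them, carry an additional helicase-like region. Several family members are induced by type I interferon and are studied as brakes on viral protein synthesis and on the growth of immune cells. Slfn14 is a ribosome-associated RNA-cutting enzyme that was found in reticulocytes, and inherited changes in its human counterpart cause a platelet disorder. Cells that lose ADAR1 editing sense their own double-stranded RNA and switch on the interferon response. The comparison therefore asks how the Schlafen genes stand in erythroid cells in which that response is measured.

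The Schlafen genes lie side by side on chromosome 11. On the build NCBIM37 the annotated cluster runs from 82764851 to 83100228, a span of 335.4 kb with 9 Slfn genes. Slfn5 (ENSMUSG00000054404, 82764851 to 82776443, plus strand) is at one end and Slfn14 (ENSMUSG00000082101, 83088614 to 83100228, minus strand) at the other. Between them are Slfn9 (ENSMUSG00000069793, 82793131 to 82805332, minus strand), Slfn4 (ENSMUSG00000000204, 82988688 to 83003723, plus strand) and Slfn3 (ENSMUSG00000018986, 83004832 to 83028656, plus strand). Slfn1, Slfn2, Slfn8 and Slfn10-ps of the cluster were not analysed here. The annotation used here names the Slfn14 locus Slfn14-ps and types it as a pseudogene, while RefSeq on GRCm38.p6 lists Slfn14 as protein coding with Slfn14-ps as a synonym.

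The sequences just before the start sites of 3 members are shown because they hold short words known from interferon-induced and erythroid promoters. They are RefSeq sequences of the build GRCm38.p6, each found once, exactly, on NCBIM37, whose coordinates are given. All 5 members matched an entry. Capitals mark matches on either strand to GAAA followed by any 2 bases and GAAA again, the core of the interferon-stimulated response element, or to GATAAG, a word bound by GATA factors and written CTTATC on the other strand.
Slfn5, chr11:82765354-82765486, plus strand: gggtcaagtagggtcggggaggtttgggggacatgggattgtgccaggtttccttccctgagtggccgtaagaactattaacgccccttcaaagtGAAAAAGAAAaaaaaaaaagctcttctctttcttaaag
Slfn9, chr11:82805333-82805582, minus strand: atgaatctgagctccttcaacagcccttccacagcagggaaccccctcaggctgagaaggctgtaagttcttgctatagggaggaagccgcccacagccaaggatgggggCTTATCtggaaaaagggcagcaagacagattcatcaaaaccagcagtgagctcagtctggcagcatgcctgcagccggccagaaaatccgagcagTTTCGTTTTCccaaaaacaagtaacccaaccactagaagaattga
Slfn14, chr11:83100229-83100478, minus strand: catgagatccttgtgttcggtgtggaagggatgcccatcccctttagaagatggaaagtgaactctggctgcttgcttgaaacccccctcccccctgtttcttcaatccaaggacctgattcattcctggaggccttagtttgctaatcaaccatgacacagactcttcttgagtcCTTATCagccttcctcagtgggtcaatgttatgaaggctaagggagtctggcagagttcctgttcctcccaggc
The Slfn5 sequence is given up to the first annotated exon base, and it lies inside the annotated gene, since another Slfn5 transcript starts upstream.

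The response element core was present in the promoter windows of 2 of the 5 members, Slfn5 and Slfn9, and in those of 3.99% of all 27025 genes of the promoter table. In Slfn5 it covered bases -155 to -146 relative to the RefSeq start, on the coding strand, and in Slfn9 bases -45 to -36, on the other strand. Among 47 interferon-stimulated genes with a promoter entry, 44.7% held it. The gamma-activated sequence TTCNNNGAA was in none of the 5 windows and in 9.55% of all genes. GATAAG, a word added after the values had been seen, was in the windows of Slfn14 (bases -74 to -69) and Slfn9 (bases -140 to -135), and in 8.59% of all genes. Each window ran from 250 bases before to 50 after the start. A match describes letters and is not taken as a binding site.

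The family members resemble each other to different degrees, which bears on how reads could be assigned. The longest Slfn3 and Slfn4 transcripts were 94.8% identical over 1673 aligned bases, and Slfn9 was 92.3% identical to Slfn8 over 3728 bases and 93.0% to Slfn10-ps over 3410. Slfn5 and Slfn9, by contrast, were 74.2% identical over 1444 aligned bases. Of the 50-base windows of the Slfn3 transcripts, 13.9% occurred also in another family member, against 8.07% for Slfn4 and 14.2% for Slfn9. No 50-base window of Slfn5 or Slfn14 was shared. With 100-base windows the share was 4.68% for Slfn9, 0.049% for Slfn4 and 0% for Slfn3. The treatment of reads shared between paralogs and the read length are not given in the sources used here, so counts of Slfn3, Slfn4 and Slfn9 are uncertain to that extent. Slfn5 shares 77 exon bases with 1700003F17Rik on the opposite strand, and the strand of the libraries is not given either.

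Slfn14 was the most abundant of the 5 Schlafen genes. Per kilobase of exon, its level averaged 77.9 CPM (the count relative to the TMM-scaled library total, in the usual CPM unit) over the 4 libraries, higher than 93.0% of the 9537 genes with a length. Slfn3 followed with 10.8 CPM per kilobase, then Slfn9 with 6.09, Slfn4 with 2.0 and Slfn5 with 1.02. The lowest library of Slfn14, at 39.1 CPM per kilobase, was above the highest of Slfn3, at 15.1. The ranges of Slfn3 (7.67 to 15.1) and Slfn9 (3.5 to 9.66) overlapped, as did those of Slfn4 (1.01 to 2.6) and Slfn5 (0.696 to 1.57), while the ranges of Slfn9 and Slfn4 did not. The order was the same in each of the 4 libraries, although in control replicate 8 Slfn4 and Slfn5 rested on 192 and 188 counts.

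Slfn14 also held most of the counts of the 5 genes. Its share of their summed counts, which leave out the Schlafen genes not analysed here, was 73.4% in knockout-labelled replicate 1 (Wilson 95% interval 72.3 to 74.5), 81.7% in replicate 2 (81.2 to 82.3), 85.3% in control replicate 3 (84.7 to 85.9) and 85.9% in control replicate 8 (85.3 to 86.5). Both controls had a larger share than either knockout-labelled library, and replicate 1 had the smallest. Slfn5 took 3.53% of these counts in that library (3.09 to 4.02) and from 0.678% to 1.45% in the other 3. These intervals cover counting error only.

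Several facts of the libraries stand beside the results. Total counts ran from 28356401 to 44016809, and the 10 erythroid marker genes were all present in every library (summed level 67245 to 101489 CPM). In 3 of 4 libraries the Y-linked counts did not match the stated sex. The 4 Y-linked genes summed to 11705 and 3 counts in knockout-labelled replicates 1 and 2. In control replicates 3 and 8 they summed to 5599 and 10695, so knockout-labelled replicate 2 was the library that differed. The part of sex in the Schlafen values was not tested. Adar itself had 67.1 and 102 CPM in the knockout-labelled pair, and 50.9 and 46.9 in the controls (log2 fold change 0.79, edgeR adjusted p = 0.377), and a gene-level count includes exons that a conditional allele keeps, so it does not check the deletion. Knockout-labelled replicate 1 stood apart in its markers of other cells: the 8 neutrophil genes with a row summed to 342 CPM there, against 39.9 to 48.5 in the other libraries.

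No Schlafen gene passed the threshold between the groups. By the edgeR quasi-likelihood test, fitted to all 10716 genes, 0 of the 5 were called at an adjusted p below 0.05, where 0.103% of all genes were (11 genes, all higher). At an unadjusted p below 0.05 the count was also 0 of 5, against 11.9% of all genes (9.82% higher and 2.08% lower). DESeq2, limma-voom and the likelihood ratio test of edgeR called 0 of the 5 as well, with 3.49%, 0.0747% and 3.26% of all genes called. The fitted log2 fold change was positive for 4 members and negative for Slfn14, with a median of 0.46 over the 5, where the median over all genes was -0.00077. In 2 members, Slfn4 and Slfn5, both knockout-labelled libraries lay above both controls, a pattern that 27.4% of all genes showed. In 0 members both lay below both controls (26.7% of all genes), and in the other 3 the groups overlapped, whereas 54.0% of all genes had groups apart in either direction. All 5 members exceeded 1 CPM in every library, so none was in the table through 1 group alone.

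**Figure D1:**
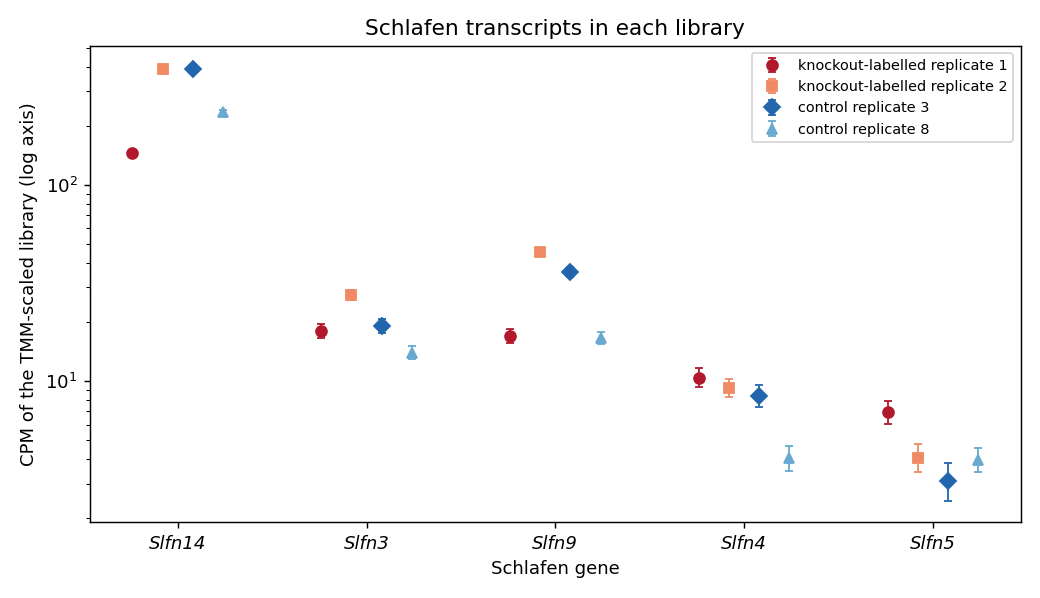
Level of each Schlafen gene in each library, in CPM of the TMM-scaled library on a log axis, with genes in the order of their level per kilobase. Points are single libraries and bars are exact Poisson 95% intervals for counting error. Slfn14 spans 145 to 388 CPM, and in Slfn14, Slfn9 and Slfn3 knockout-labelled replicate 2 and control replicate 3 are the upper pair.

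Slfn5 is a long family member that is often listed with the interferon-stimulated genes. It had 213 and 157 counts in the knockout-labelled pair, and 85 and 188 in the controls, or 6.95 and 4.07 CPM against 3.08 and 3.97. Knockout-labelled replicate 1 stood above the other libraries. Replicate 2 was 1.02-fold above the higher control, and their exact Poisson 95% intervals (3.46 to 4.76 and 3.42 to 4.58 CPM) overlapped, so these libraries were not separable at this depth. Mean levels were 5.51 ± 2.04 CPM against 3.53 ± 0.629 CPM in the controls (SD, n = 2 per group). Its log2 fold change came to 0.64 (SE 0.39, edgeR adjusted p = 0.466), with a 95% interval from -0.31 to 1.59, that is from 0.806-fold to 3.0-fold.

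The Slfn5 value depended on which knockout-labelled library was kept. Without knockout-labelled replicate 2 its log2 fold change was 0.96 (edgeR adjusted p = 0.0417), in a fit that called 32.6% of all genes. Without replicate 1, where 1.33% of all genes were called, it was 0.20 (edgeR adjusted p = 0.946). Replicate 1 is the library with the high neutrophil marker sum, and its summed megakaryocyte markers were also the highest, at 186 CPM against 66.0 to 115 in the others. The summed level of the 48 interferon-stimulated genes with a row was also highest in replicate 1. It was 5288 CPM there and 3739 in replicate 2, against 2280 and 1786 in control replicates 3 and 8. The part of neutrophils, megakaryocytes or the interferon response in the Slfn5 value was not tested.

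Slfn4, known from monocytes and macrophages, where its level falls as the cells mature, had the smallest p of the family. Its values were 10.4 and 9.23 CPM in the knockout-labelled pair, and 8.41 and 4.06 in the controls. Control replicate 8 was low and the other 3 libraries lay close together, with a fold of 2.07 between the controls. That gap was larger than in 97.1% of the 2351 genes of like level (within 1 log2 unit). Its log2 fold change came to 0.66 (SE 0.40, edgeR adjusted p = 0.464, 95% interval -0.31 to 1.63). Without control replicate 8 it was 0.21 and without control replicate 3 it was 1.27, and neither fit called it. Of the macrophage and monocyte markers, 10 of 15 had a row, and their summed level was 51.7 and 28.1 CPM in the knockout-labelled pair, and 62.1 and 36.7 in the controls. The first of these sums included 43.1 CPM of Lyz2, which neutrophils also express, and the complement gene C1qa had 0.196 and 0.803 CPM in the knockout-labelled pair against 3.55 and 1.67. Both genes were chosen after their values were seen. Their part in the Slfn4 value was not tested.

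Slfn3, a shorter family member beside Slfn4 in the cluster, had 18.0 and 27.5 CPM in the knockout-labelled pair, and 19.1 and 13.9 in the controls. Knockout-labelled replicate 2 was the highest library, and replicate 1 lay between the controls. Its log2 fold change came to 0.46 (SE 0.30, edgeR adjusted p = 0.481, 95% interval -0.28 to 1.20). Without knockout-labelled replicate 1 it was 0.74 and without replicate 2 it was 0.11, with edgeR adjusted p of 0.284 and 0.742.

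Slfn9, a long member, varied more within the groups than between them. Its levels were 17.0 and 45.7 CPM in the knockout-labelled pair, and 36.0 and 16.5 in the controls. Each group held 1 high and 1 low library. The fold between the knockout-labelled libraries was 2.69, larger than in 97.4% of the 3343 genes of like level, and that between the controls was 2.18, larger than in 99.2%. Its log2 fold change came to 0.26 (SE 0.55, edgeR adjusted p = 0.816, 95% interval -1.10 to 1.62). Its direction was not stable: leaving out the high knockout-labelled library (replicate 2) gave -0.64 and leaving out the low one (replicate 1) gave 0.81. Among the controls, leaving out replicate 8 gave -0.20 and leaving out replicate 3 gave 0.92.

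Slfn14, the ribosome-associated nuclease, had the same upper pair of libraries as Slfn9 and Slfn3, knockout-labelled replicate 2 and control replicate 3, at a far higher level. It had 145 and 387 CPM in the knockout-labelled pair, and 388 and 235 in the controls, from 4436 to 14931 counts. Knockout-labelled replicate 1 was the lowest library, and replicate 2 equalled control replicate 3 within the Poisson 95% intervals (381 to 393 and 380 to 395). Mean levels were 266 ± 171 CPM against 311 ± 108 CPM in the controls (SD, n = 2 per group). Between the knockout-labelled libraries the fold was 2.67, larger than in 98.3% of the 1229 genes of like level, whose median fold was 1.23. Between the controls it was 1.65, larger than in 98.2% of these genes, whose median there was 1.13. Its log2 fold change came to -0.23 (SE 0.49, edgeR adjusted p = 0.819), and its 95% interval ran from -1.44 to 0.98, so a fall to 0.369-fold and a rise to 1.98-fold are both inside it.

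The direction of the Slfn14 value changed with the library left out. Without knockout-labelled replicate 2 its log2 fold change was -1.12 (edgeR adjusted p = 0.0485), again in the fit that called 32.6% of all genes, and without replicate 1 it was 0.31 (edgeR adjusted p = 0.912). Without control replicate 3 it was 0.18, and without control replicate 8 it was -0.55. The erythroid transcription factor gene Klf1 was also lowest in knockout-labelled replicate 1, with 204 CPM there and 520 in replicate 2, against 689 and 533 in the controls. The summed level of all 10 erythroid markers did not set replicate 1 apart: it was 71165 CPM there and 71825 in replicate 2, against 101489 and 67245 in control replicates 3 and 8. Among these markers 0 were called (0.103% of all genes were), and their median log2 fold change was -0.22. The part of erythroid makeup in the Slfn14 value was not tested.

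**Figure D2:**
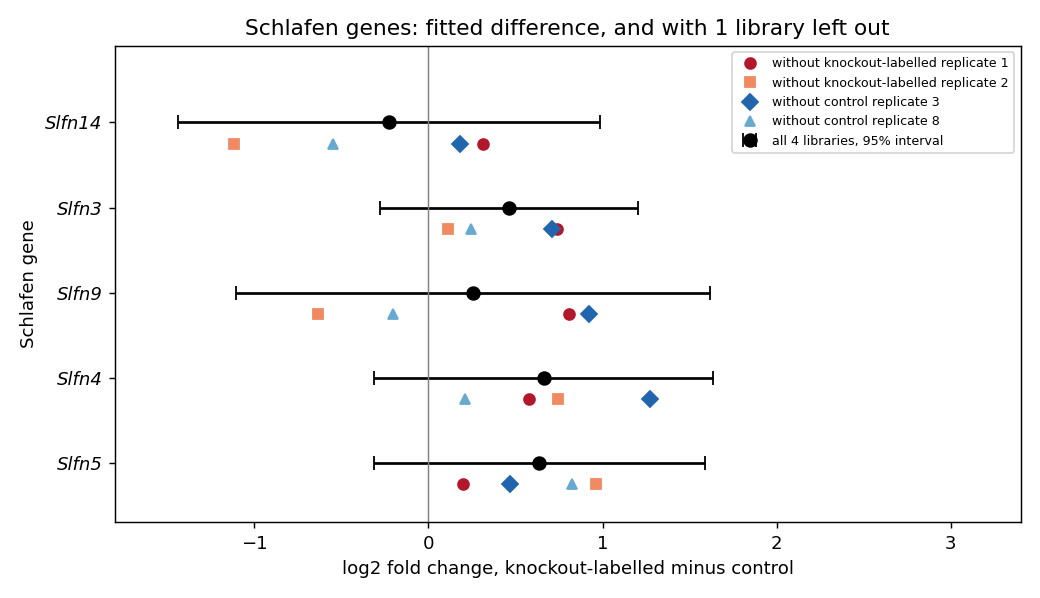
Log2 fold change of each Schlafen gene, knockout-labelled minus control. Black points with bars are the edgeR estimates and 95% intervals from all 4 libraries, and the coloured points below them leave out 1 library each. Every interval includes 0, and the coloured points of Slfn14 (-1.12 to 0.31) and Slfn9 (-0.64 to 0.92) lie on both sides of it.

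The members fell into unlike profiles over the 4 libraries. As a measure of likeness, the log2 CPM of each gene was centred on its own mean and the root mean square difference between genes was taken. Slfn9 and Slfn14 were the closest pair of the family, at 0.30 log2 units, and Slfn5 and Slfn14 the farthest, at 0.98. Slfn3 and Slfn4, neighbours in the cluster, differed by 0.38. These are descriptions over 4 libraries that share the same groups.

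Among 2008 genes within 1 log2 CPM of Slfn5, the 5 with the nearest profile were Nxn (root mean square difference 0.022), Gm71 (0.030), 2810001A02Rik (0.036), Sort1 (0.036) and Wwox (0.038). Nxn had 9.26 and 5.47 CPM in the knockout-labelled pair, and 4.02 and 5.41 in the controls. For Slfn14 the same measure, applied after its values had been seen, placed Nfe2, the gene of an erythroid and megakaryocytic transcription factor, nearest among 1228 genes (0.146). Ankrd43 (0.152), Plekho2 (0.154), Ank (0.160) and Hs6st1 (0.196) came next, the first of them at nearly the same distance. Nfe2 had 271 and 550 CPM in the knockout-labelled pair, and 646 and 410 in the controls, so that replicate 1 was again the lowest library.

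The Schlafen genes stood low among the interferon-stimulated genes. Of 48 such genes with a row, Schlafen genes kept out, 6 were called higher and 0 lower, against 0.103% and 0% of all genes. At an unadjusted p below 0.05, 40 of the 48 were higher, against 9.82% of all genes. The median log2 fold change of the 48 was 2.94. Leaving out 1 library changed the number called, both among the 48 and over all genes. In 42 of the 48, both knockout-labelled libraries were above both controls, as in 27.4% of all genes. The list was compiled with earlier results of these data known, and its counts are a description. Slfn3, Slfn4, Slfn5 and Slfn9 each had a log2 fold change above only 7 of the 48, and Slfn14 above 3. Oas3, an oligoadenylate synthetase gene of the antiviral response, rose by 8.63 on the log2 scale (edgeR adjusted p = 0.00663), the radical enzyme gene Rsad2 by 4.88 (adjusted p = 0.00663) and the ubiquitin-like modifier gene Isg15 by 6.90 (adjusted p = 0.027).

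Interferon-stimulated genes with a control level near that of Slfn5 differed widely in their fold change. Whether the control level bears on the Slfn5 value was not tested. The 5 interferon-stimulated genes whose control level was nearest to that of Slfn5 were Bst2, Nmi, Isg15, Ifi35 and Oasl2. Isg15 had 501 and 217 CPM in the knockout-labelled pair, and 3.08 and 2.92 in the controls, and Oasl2 had 213 and 125 against 3.63 and 5.56. Both groups of these genes were far apart, whereas those of Slfn5 nearly met. Bst2, which encodes the virus-tethering protein tetherin, had 64.5 and 15.0 CPM against 2.39 and 5.47. Ifi35 had 11.6 and 6.66 against 3.23 and 5.20, and Nmi 6.88 and 5.47 against 4.28 and 3.44. Nmi, with a log2 fold change of 0.68 (edgeR adjusted p = 0.433), was the nearest of the 5 to the value of Slfn5. The calls were Isg15 and Oasl2, and Bst2 (adjusted p = 0.285), Ifi35 (0.415) and Nmi fell short of the threshold.

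**Figure D3:**
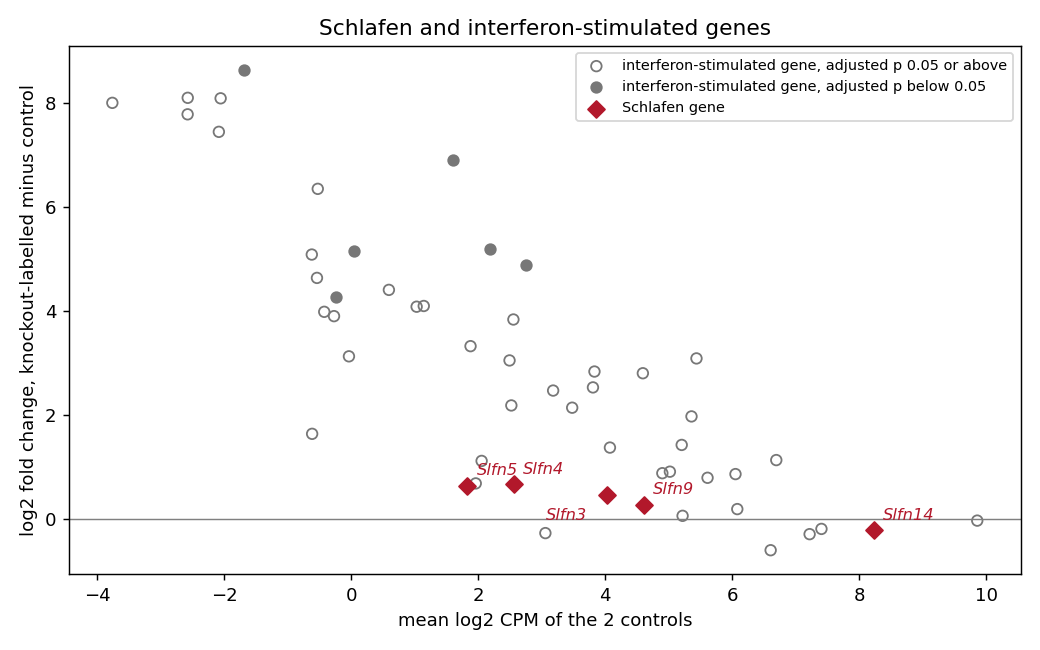
Log2 fold change against the mean log2 CPM of the controls for the 48 interferon-stimulated genes (circles, filled where the edgeR adjusted p is below 0.05) and the 5 Schlafen genes (red diamonds). The Schlafen genes lie between -0.23 and 0.66, and 7 of the 48 circles lie below the Slfn4 diamond (0.66).

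The genes that carry the interferon signal to such targets were described by role. Of 12 receptor and signalling genes with a row, 0 were called, 6 were higher and 1 lower by unadjusted p (below 0.05), and the median log2 fold change was 0.56. Of all genes 0.103% were called, and 9.82% were higher and 2.08% lower at that unadjusted p. Irf9, the DNA-binding part of the ISGF3 complex that acts on the response element, had 92.1 and 106 CPM in the knockout-labelled pair, and 39.9 and 34.01 in the controls (log2 fold change 1.42, SE 0.20, edgeR adjusted p = 0.105). Its groups were far apart. Slfn5 and Slfn9, whose promoter windows hold the core of that element, had values of 0.64 and 0.26. Slfn4, Slfn3 and Slfn14, whose windows held no match to it, had 0.66, 0.46 and -0.23. Whether a match bears on these values was not tested.

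Genes of the processes that Schlafen nucleases act on were read alongside. Among 10 genes for cleaving, guarding and repairing tRNA, 0 were called by edgeR and 0 had an unadjusted p below 0.05, and the median log2 fold change was -0.27. Elac1, a tRNA-processing nuclease gene, had the smallest p, with 0.73 (edgeR adjusted p = 0.433). Among 9 genes for sensing and rescuing stalled ribosomes, 0 were called and 0 had an unadjusted p below 0.05, with a median of 0.15. Abce1, which encodes a ribosome recycling factor, had the smallest p, with -0.51 (edgeR adjusted p = 0.433). Of all genes, 0.103% were called by edgeR and 11.9% had an unadjusted p below 0.05.

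No marker of another cell type that a fetal liver sort could hold was called. Of the macrophage and monocyte list 0 of 10 were called, of the neutrophil list 0 of 8, of the megakaryocyte list 0 of 8, of the endothelial list 0 of 3, of the hepatoblast list 0 of 4 and of the lymphocyte list 0 of 1. Of all genes 0.103% were called, so 0 in lists this short says little. At an unadjusted p below 0.05 the counts were 6 lower for macrophages, 3 higher for megakaryocytes, 2 higher for endothelium and 0 for the others. Over all genes 9.82% were higher and 2.08% lower at that p. The smallest p of each list belonged to Vcam1 (log2 fold change -2.70), S100a9 (2.22), Itgb3 (1.91), Pecam1 (2.49), Apoa1 (-0.86) and Lck (-0.38), which did not pass. The share of the Schlafen counts that came from such cells was not tested.

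The neighbours of Slfn5 did not pass either. The 5 genes with a row before Slfn5 were Myo1d, Zfp830, Lig3, Rffl and Nle1, with log2 fold changes from -0.33 (Myo1d) to 0.27 (Lig3). Behind it came Slfn9, Slfn4, Slfn3, the non-coding transcript AI662270 and Slfn14. AI662270, which starts 272.2 kb behind the Slfn5 start, between Slfn3 and Slfn14, had 158 and 265 CPM in the knockout-labelled pair, and 216 and 139 in the controls. Its upper pair of libraries was the one seen for Slfn3, Slfn9 and Slfn14. In Slfn3, control replicate 3 (19.1 CPM) was close to knockout-labelled replicate 1 (18.0 CPM). The log2 fold change of AI662270 was 0.25 (SE 0.34, edgeR adjusted p = 0.700).

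**Figure D4:**
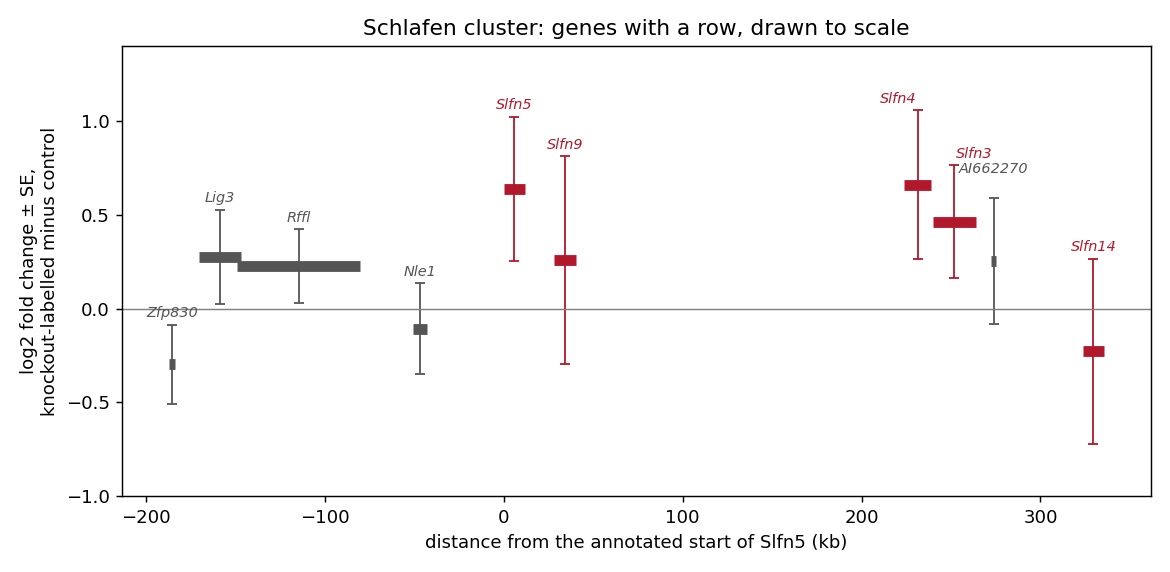
Log2 fold change (knockout-labelled minus control) with its SE of the genes with a row around the Schlafen cluster, drawn to scale at their distance in kb from the annotated start of Slfn5. Schlafen genes are red and others grey, and Myo1d, farther off, is left out. Slfn5 (0.64) and Slfn4 (0.66) are the upper points and Slfn14 (-0.23), at the far end, lies below 0.

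In the authors' deposited table, with the sign turned to knockout minus wild type, the log2 fold changes were 0.81 for Slfn4, 0.55 for Slfn5, 0.48 for Slfn3, 0.26 for Slfn9 and -0.39 for Slfn14. The authors' deposited table gives these genes adjusted p-values from 0.442 (Slfn4) to 0.823 (Slfn9), and has 8 genes below 0.05. The directions in the authors' deposited table are those of the edgeR fit in all 5 members.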

How the data were processed

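The authors deposited raw counts per gene for 4 libraries, their CPM of the TMM-scaled library, and a comparison table with log2 fold changes (wild type minus knockout), p-values and adjusted p-values. Counts and scaled values were equal in both deposited copies for all 10716 genes. Tools listed in the submitters' processing notes, without roles, include HTSeq, limma, edgeR, TopHat2 2.0.8 and Trimmomatic 0.30, and the builds are mm9 and NCBIM37. Every gene of the table exceeded 1 CPM in at least 2 libraries, so less abundant genes were not analysed here. Total counts per library ran from 28356401 to 44016809.

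Groups came from the library titles. The fit used edgeR 4.0.16 under R 4.3.3: filterByExpr (0 genes removed), TMM, estimateDisp, glmQLFit (robust=TRUE, legacy=TRUE) then glmQLFTest (two-sided). P-values were adjusted by Benjamini and Hochberg's method across the whole table. The fit had 2 residual degrees of freedom, and its tests and intervals added to them degrees of freedom estimated over all genes. The SE was the absolute log2 fold change over the square root of F. The procedure was also run on simulated counts. Their changes were larger than the Schlafen values and their spread was smaller than in these data, so that run does not bear on these values. Log2 CPM used a prior count of 2. Poisson and Wilson intervals cover counting error only, and intervals of log2 fold changes are the SE times the t quantile of the fit. Levels between genes are per kilobase of merged exons (GENCODE M1). Alternatives were other scalings, filters, tools and fit options, a fit with the sex label, and fits without each library in turn. The genes named are Adar, the members, the smallest p values of each list, the interferon-stimulated genes nearest Slfn5 in level, its nearest profiles and its neighbours. Lyz2, C1qa and the genes nearest Slfn14 in profile, Nfe2 among them, fall outside that rule and were chosen after their values were seen. The members, lists and rules were chosen with earlier results of these data known.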

Additional observations from a re-analysis of the deposited data

How the results depend on the processing

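With 2 libraries per group and 2 residual degrees of freedom, the intervals of the Schlafen values are wide. Slfn5 is the member most limited by depth, with 85 to 213 counts per library. Under the other scalings, filters, tools, fit options and the sex covariate, the 5 members kept their direction and none passed the threshold. The sex covariate was the stated sex, which the Y-linked counts did not match in 3 of 4 libraries. That fit therefore cannot show whether the values hold once sex is allowed for. Leaving out 1 library gave log2 fold changes from 0.20 to 0.96 for Slfn5, 0.11 to 0.74 for Slfn3, 0.21 to 1.27 for Slfn4, -0.64 to 0.92 for Slfn9 and -1.12 to 0.31 for Slfn14. Slfn9 reversed without knockout-labelled replicate 2 (-0.64) and control replicate 8 (-0.20). Slfn14 reversed without knockout-labelled replicate 1 (0.31) and control replicate 3 (0.18). The number of members called ran from 0 to 2, with 2 (Slfn5 higher, Slfn14 lower) without knockout-labelled replicate 2. The cause of these changes was not tested. The number of genes called, 11, was 87 without library scaling, 374 with DESeq2, 349 with the likelihood ratio test, 41 with the sex covariate, and 27 to 3492 when leaving out 1 library (143 and 3492 without knockout-labelled replicates 1 and 2, 41 and 27 without control replicates 3 and 8). The 6 interferon-stimulated genes called became 23, 35, 36 and 23 in the same settings, and 9 (without control replicate 8) to 40 (without knockout-labelled replicate 2) when leaving out 1 library. The mean levels under plain library totals and in the authors' deposited normalised values moved by less than 1 SD in all 5 members. No paired analysis was possible because the groups share no replicate number.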
